A study of Triticum turgidum subsp. durum with 32 samples.

Results

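The 69 transcribed loci described here were expressed in wild-type wheat leaves and stood far lower in plants without functional *PHYB*, while the loss of *PHYC* left their mean level, taken over both PHYC experiments, within a factor of 2 of wild type. They were chosen from 150754 counted loci by their measured values. Counts were divided by the library total and given per 1000000 counted reads (CPM). A member had a *PHYB* wild-type mean of at least 1 CPM and a ratio of wild type to *phyB*-null of at least 6 in each of 2 experiments, with 0.05 CPM added to both means. Its ratio of *phyC*-null to *PHYC* wild type, over means of 8 libraries each, lay between 0.5 and 2, and it was not among the loci in the tables of the study. Of the 37399 loci with at least 1 CPM in the *PHYB* wild type of both experiments, 127 were at least 6-fold lower in *phyB*-null in both. Of these 127, 47 had a *phyC*-null ratio below 0.5, 10 had one above 2, and 1 was left out as a locus of the study's tables. The contrast of *phyB*-null with its wild type, and the mean PHYC ratio, are therefore given as descriptions, and no test of them is used as a result.

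All plants were the tetraploid durum wheat variety Kronos, which carries an A and a B genome and so an A and a B homoeologue of most genes. The *phyB*-null plants combined premature stop codons in both homoeologues, found in a mutagenized TILLING population and backcrossed to Kronos. The *phyC*-null plants lacked both functional copies of *PHYC*. Each mutant was compared with wild-type sister lines from its own crosses, so the mutated gene and any other difference that the mutant line carries cannot be told apart. Plants were 4 weeks old and had grown in 16 h light and 8 h dark, and RNA came from the third leaf, fully extended, 4 h after the lights came on. The *phyB*-null plants set no seed, so 1 of the mutations was kept heterozygous in the seed stock. Each sample was bulk leaf tissue, in which fewer cells of a type and less RNA per cell cannot be told apart. The PHYB lines and the PHYC lines were grown separately. Both PHYB experiments ran one after the other in 1 chamber, and the PHYC experiments ran in separate chambers whose lamps had different ballasts. The 4 genotypes in 2 experiments made 8 groups of 4 libraries, 32 libraries in all.

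Phytochromes are red and far-red light receptors that move into the nucleus when red light activates them. There they bind PHYTOCHROME INTERACTING FACTORS, transcription factors of the bHLH family, and change the expression of many genes. Phytochrome B is the main receptor by which plants sense shade, and phytochrome C is needed together with it for the flowering of wheat under long days.

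The libraries held 15961572 to 47695062 counted reads, so 1 read was worth between 0.0210 and 0.0627 CPM. Libraries of a group correlated with Spearman coefficients of 0.903 to 0.995, and no columns were identical. To compare the labels with the study, 6 of its flowering loci were looked up. They were 13.8 to 367-fold higher in wild type than in *phyB*-null and 8.13 to 114-fold higher in wild type than in *phyC*-null. The study had called these loci lower in both mutants on the same samples. They are therefore no independent check and cannot tell the mutants apart. The leaf label could not be checked with marker genes. The annotation that was shown held 1 leaf marker, which lay at 0.406 to 1.15 CPM in the *PHYB* wild-type libraries. On the scale of library totals the median of all loci stood higher in the null mutants, by 0.26 and 0.18 log2 units in PHYB experiments 1 and 2 and by 0.30 and 0.07 in PHYC experiments 1 and 2. The ratios of the members are to be read against that shift.

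Together the 69 loci took 0.283 to 0.386% of the counted reads in the 8 *PHYB* wild-type libraries and 0.0242 to 0.0351% in the 8 *phyB*-null libraries. In the 16 libraries of the PHYC lines, mutant and wild type alike, they took 0.181 to 0.423%. The ratio of wild type to *phyB*-null had a median of 10.5 in experiment 1, with a range of 6.19 to 239, and a median of 10.9 in experiment 2, with a range of 6.71 to 228. Over all expressed loci these medians were 0.834 and 0.883. At 62 of the 69 loci every one of the 8 wild-type libraries lay above every one of the 8 *phyB*-null libraries, which 3.64% of expressed loci showed. edgeR's quasi-likelihood test called 68 members lower in experiment 1, where it called 5.43% of all loci tested lower, and 68 in experiment 2, against 5.72%. It called 67 lower in both, against 2.89%. Within experiment 1 alone 67 members had no overlap (9.37% of expressed loci), and within experiment 2 66 had none (9.89%). The rule used this contrast and its 6-fold limit decides these counts, so nothing is read from them. The 2 members just inside the limit were contig28096, on 3B, and Traes_1AL_A27146E34, on 1A, each at 6.19 in experiment 1. The 2 loci just outside it were td-k35_contig_36283, at 5.82, and Traes_7BS_20C7EAD4A, at 5.77.

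**Figure D1:**
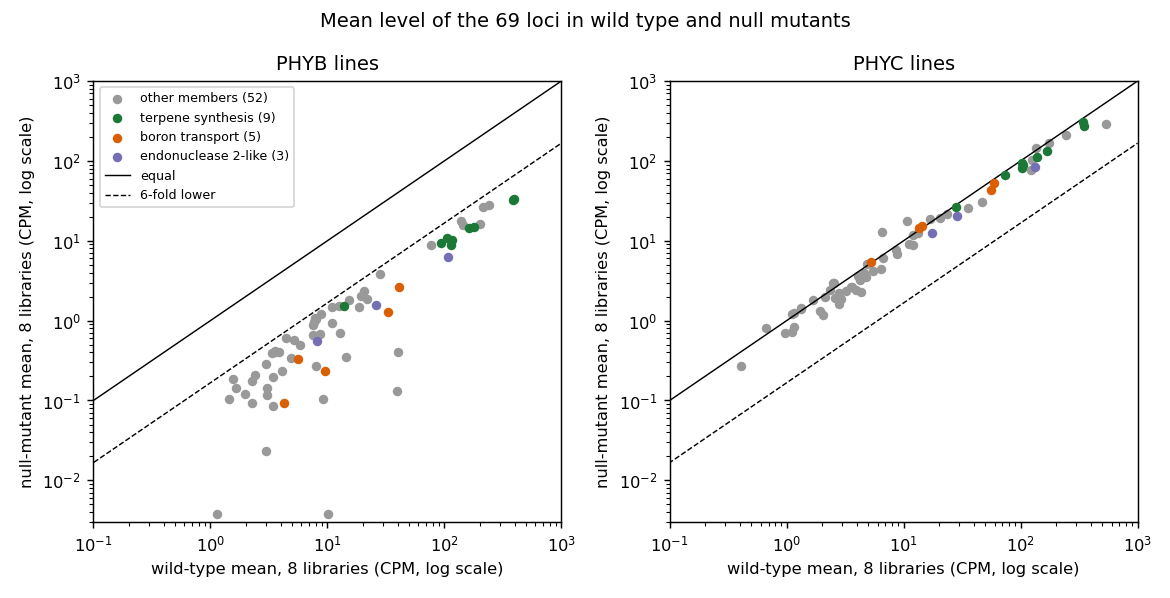
Mean level of the 69 loci in wild type (horizontal axis) and null mutant (vertical axis), each over 8 libraries in CPM on log scales, for the PHYB lines (left) and the PHYC lines (right). Solid lines mark equal levels and dashed lines a 6-fold lower level. Every point lies under the dashed line in the PHYB lines, as the rule requires, and near the solid line in the PHYC lines.

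Of the 69 loci, 42 had a protein description in the annotation shown with the study, 5 were listed without a protein hit and 22 were not in the part shown. That annotation covers only loci which the study called on these same samples, so the lists of genes below are not independent of the results. Reads were counted only where they mapped uniquely, and the kit does not mark strand. Near-identical copies can therefore have lost or exchanged reads, and overlapping genes on opposite strands cannot be told apart. Positions are those of the deposited annotation on the IWGSC draft assembly v2.2, where 46 members were placed on a chromosome and 23 on scaffolds assigned to a chromosome arm.

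The largest group of described members had descriptions of terpene synthesis, and their products were not measured. Terpene synthases form volatile and defence compounds, among them sesquiterpenes, which are made from farnesyl diphosphate. There were 8 terpene synthase loci among the members, 3 on 5A and 5 on 5B, and a locus on 6A described as a premnaspirodiene oxygenase, a cytochrome P450 that oxidizes a sesquiterpene. Their summed level was 2194, 1713, 1298 and 2015 CPM in the 4 wild-type libraries of PHYB experiment 1 and 171, 133, 161 and 115 CPM in those of *phyB*-null. In experiment 2 it was 1507, 1467, 969 and 1386 CPM in wild type and 168, 144, 95.9 and 95.7 CPM in *phyB*-null. The groups did not overlap in either experiment, and the ratios of the sums were 12.5 and 10.6.

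Among the 8 synthases the single ratios of wild type to *phyB*-null ran from 8.84 to 13.7 over both experiments. The locus contig57240 (scaffold 1535390 of 5A, 1090 to 8400), described as an (E)-beta-farnesene synthase, had 555, 429, 318 and 494 CPM in wild type and 42.9, 29.8, 39.2 and 29 CPM in *phyB*-null of experiment 1. Farnesene is a volatile that many plants release. Traes_5AS_68BD5FB57 (scaffold 1551992 of 5A, 1416 to 2474), with the same description, had 542, 429.6, 335 and 494 CPM in wild type and 43.5, 33.5, 39.98 and 28.7 CPM in *phyB*-null of that experiment. Its ratios were 12.3 and 11.6 in experiments 1 and 2, and those of contig57240 were 12.7 and 10.9. The description was shared by Traes_5AS_BC8784C1D (scaffold 1547091 of 5A, 3299 to 5634) and Traes_5BS_1F3E56595 (scaffold 2295188 of 5B, 2 to 2080). They had ratios of 13.5 and 10.6 and of 12.5 and 9.77.

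The loci Traes_5BS_577D58A57 (5B, 4922258 to 4924359) and Traes_5BS_D41C4D394 (scaffold 2295186 of 5B, 177 to 2327) were described as (+)-delta-cadinene synthases, enzymes that close the ring of another sesquiterpene. The *phyB*-null libraries of Traes_5BS_D41C4D394 held 5.85 to 12.3 CPM and its wild-type libraries 73.96 to 149 CPM. Traes_5BS_479F212D9 (5B, 4763385 to 4766152) and Traes_5BS_322D34A22 (scaffold 1260197 of 5B, 31 to 1303) were described only as terpene synthases and had ratios of 10.7 and 9.04 and of 13 and 9.63. In every one of the 8 synthases the same library, replicate 3, was the lowest of the 4 wild-type libraries in both PHYB experiments. The 8 loci are similar in description and 2 of the 5B loci lie on neighbouring scaffold numbers, 2295186 and 2295188, so they are not 8 independent measurements.

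In the PHYC lines the 9 terpene loci summed to 1105 ± 337 CPM (SD, n = 4) in wild type and 1023 ± 97.6 CPM in *phyC*-null of experiment 1. In experiment 2 the sums were 1698 ± 337 CPM and 1344 ± 138 CPM. Wild type and *phyC*-null overlapped in both experiments, and every PHYC library lay above every *phyB*-null library. The premnaspirodiene oxygenase locus Traes_6AS_F061F607E (6A, 156822581 to 156824567) had a *phyC*-null ratio of 0.470 in experiment 1 and 1.88 in experiment 2. Its 4 *phyC*-null libraries held 15.6, 14.5, 21.1 and 20.1 CPM in experiment 1 and 29.3, 49.4, 22.3 and 37.2 CPM in experiment 2.

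The list of terpene loci held 14 in all. Besides the 9 members, 4 synthases on 2A, 2B and 4A had lower means in wild type than in *phyB*-null. They were Traes_2AS_70A307642, Traes_2BS_0E205503D, td-k31_contig_77390 and td-k41_contig_81168, with ratios of wild type to *phyB*-null of 0.0186 to 0.206. For Traes_2BS_0E205503D, described as a casbene synthase, the wild-type means were 0 and 0.00799 CPM and the *phyB*-null means 2.46 and 1.91 CPM. The other one, Traes_6AS_18F0EEEE5, a second premnaspirodiene oxygenase locus on 6A, was 6.40 and 6.30-fold lower in *phyB*-null and was not a member because its *phyC*-null ratio was 0.369.

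**Figure D2:**
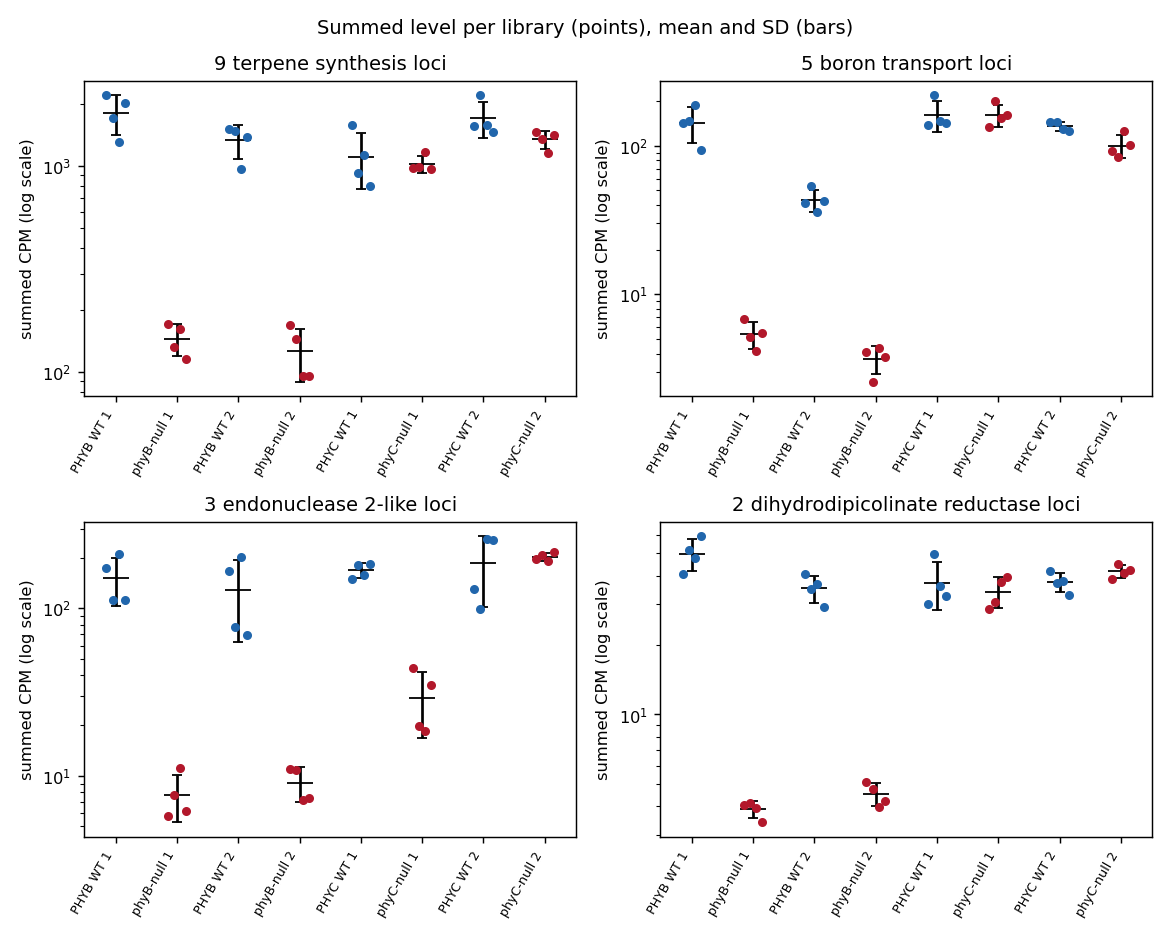
Summed CPM (log scale) of 4 gene groups in each library (points; blue, wild type; red, null mutant), with the mean and SD of the 4 libraries of each of the 8 groups, numbered by experiment. All 4 groups are low in both *phyB*-null groups. Only the endonuclease 2-like loci, of the 4, are also low in *phyC*-null of experiment 1, and the boron transport loci are lower in *PHYB* wild type of experiment 2 than of experiment 1.

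Boron transport was the second group. Boron is an essential nutrient that cross-links pectin in the cell wall, BOR proteins export it as borate and NIP aquaporins let boric acid into the cell. All 6 loci of the list were lower in *phyB*-null in both experiments and 5 of them were members, 4 boron transporters on 3A and 3B and an aquaporin locus on 1A. Their summed level was 142, 147, 187 and 93.4 CPM in wild type and 6.85, 5.13, 4.17 and 5.49 CPM in *phyB*-null of experiment 1, a ratio of 26.3. Experiment 2 had 40.9, 53.3, 35.7 and 42.7 CPM in wild type and 4.08, 2.59, 4.35 and 3.76 CPM in *phyB*-null, a ratio of 11.7. All 4 wild-type libraries of experiment 2 lay below all 4 of experiment 1, and far above *phyB*-null.

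Traes_3AS_48FDCD285 (scaffold 3394699 of 3A, 44 to 2022), described as boron transporter 2 of bread wheat, held 53.4, 54.1, 69.9 and 31.1 CPM in wild type and 1.97, 1.23, 0.964 and 1.44 CPM in *phyB*-null of experiment 1. In experiment 2 it held 12.2, 17.2, 8.99 and 14.6 CPM in wild type and 1.53, 0.729, 1.2 and 1.19 CPM in *phyB*-null. Wild type and *phyB*-null did not overlap, and the ratios were 36 and 10.97. The transporter locus td-k63_contig_33144_td-k41_contig_17316 (3B, 138452862 to 138458917) had ratios of 18.1 and 10.8. The other transporters were Traes_3AS_F41DD5A61 (3A, 24557110 to 24559141), with ratios of 44.9 and 16.2, and Traes_3AS_6FF8FC0C5 (scaffold 967998 of 3A, 7 to 358), with ratios of 39 and 15.4. Both had the same protein hit, so they may be pieces of 1 gene or close copies, which the files do not settle.

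The aquaporin locus Traes_1AL_0912DED70 (1A, 84876840 to 84881641), described as NIP3-1 or NIP5-1, held 9.2, 5.64, 7.79 and 9.58 CPM in wild type and 0.197, 0.325, 0.21 and 0.538 CPM in *phyB*-null of experiment 1. In experiment 2 the values were 3.86, 2.6, 4.59 and 1.29 CPM and 0.32, 0.331, 0.3 and 0.462 CPM, and no libraries overlapped. A locus on 1B with the same description, Traes_1BL_CC64CA41E, had ratios of 15.2 and 4.44 and fell short of the limit in experiment 2. In the PHYC lines the 5 members summed to 162 ± 37.8 CPM in wild type and 162 ± 27.3 CPM in *phyC*-null of experiment 1 (SD, n = 4). In experiment 2 the sums were 135 ± 9.6 CPM and 100.3 ± 17.5 CPM, with all 4 *phyC*-null libraries below all 4 wild-type libraries.

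The level of the boron transporters in wild type differed between PHYB growth runs, a contrast that the rule did not use. The rule did set a floor and a 6-fold ratio on the *PHYB* wild-type mean of each run. The P values below do not account for this selection. From the wild type of PHYB experiment 1 to that of experiment 2 all 4 transporters fell. The log2 difference was -2.01 ± 0.21 (SE) for Traes_3AS_48FDCD285, where the quasi-likelihood test of edgeR gave an adjusted P of 3.71e-05, and -1.4997 ± 0.16 for td-k63_contig_33144_td-k41_contig_17316 (5.12e-05). It was -2.06 ± 0.24 for Traes_3AS_F41DD5A61 (0.000105) and -2.14 ± 0.25 for Traes_3AS_6FF8FC0C5 (0.000114). These 4 were the only members that edgeR called lower in experiment 2, among 1.46% of all loci tested. The aquaporin locus had a log2 difference of -1.38 ± 0.34 and an adjusted P of 0.0184 and did not pass 0.01. The 4 calls passed 0.01 in all 8 alternative fits. In the PHYC wild type the same comparison gave Traes_3AS_48FDCD285 a log2 difference of -0.95 and an adjusted P of 0.0175, which did not pass.

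Nucleases were the third group. The S1-type endonucleases of plants cut single-stranded RNA and DNA and are known from senescing and dying tissue. All 3 loci of the list were members, each described as endonuclease 2-like or nuclease S1, and all were on 3A. Traes_3AS_E61C3A374 (3A, 6435297 to 6436115) held 134, 86.1, 159 and 86.4 CPM in wild type and 4.45, 5.92, 8.41 and 4.63 CPM in *phyB*-null of experiment 1. In experiment 2 it held 125.1, 57.8, 152 and 53.1 CPM in wild type and 8.31, 7.82, 5.4 and 5.05 CPM in *phyB*-null. The ratios were 19.8 and 14.5 for this locus, 20.0 and 12.8 for Traes_3AS_FC81ABB98 (scaffold 3342168 of 3A, 3 to 660) and 15.1 and 12.4 for td-k63_contig_78874 (3A, 4687392 to 4687950). At all 3 loci library 3 was the highest and library 1 the next in the wild type of both PHYB experiments, so they are not independent measurements.

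The PHYC experiments gave different values for these loci. In experiment 1, Traes_3AS_E61C3A374 held 109, 156, 114 and 142 CPM in *PHYC* wild type and 31.5, 14.3, 13.9 and 25.8 CPM in *phyC*-null. In experiment 2 the values were 95.2, 70.9, 185 and 179.5 CPM and 139.7, 149, 139 and 158 CPM. The ratio of *phyC*-null to wild type was 0.164 in the first experiment, where all 4 null libraries lay below all 4 wild-type libraries, and 1.10 in the second, where the groups overlapped. The rule limited the mean ratio over both PHYC experiments and set no limit on the difference between them. A locus this low in *phyC*-null of experiment 1 could be a member only if its ratio was higher in experiment 2. Selection could therefore favour members with such a difference. The difference was tested after the values had been seen, and the P values do not account for this selection. The counts of members called are descriptions.

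As an interaction of genotype and experiment over the 16 PHYC libraries, edgeR's quasi-likelihood test gave Traes_3AS_E61C3A374 a log2 difference of 3.05 ± 0.40 (SE) with an adjusted P of 0.00241. It was the only member called at 0.01, where 0.0172% of loci tested were called, and the call was lost when any replicate number was left out, with adjusted P values of 0.0175 to 0.0445. At 0.05 there were 5 members, where 0.0625% of loci were called. They were the 3 nuclease loci, with log2 differences of 2.68 ± 0.45 (adjusted P 0.0270) for Traes_3AS_FC81ABB98 and 2.64 ± 0.48 (0.0471) for td-k63_contig_78874, and Traes_1AL_A4F0E895F with 0.93 ± 0.16 (0.0315) and CL1Contig6366 with 1.44 ± 0.25 (0.0392). These 4 calls were not stable, since 1 to 2 members were called at 0.05 when a replicate number was left out. Over the alternative fits the adjusted P in edgeR or DESeq2 reached 0.138 for Traes_3AS_FC81ABB98, 0.352 for td-k63_contig_78874, 0.433 for Traes_1AL_A4F0E895F and 0.372 for CL1Contig6366. The separate chambers and ballasts of the PHYC experiments go with this difference and cannot be told apart from the growth run.

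In PHYC experiment 1, 19 of the 69 members had a *phyC*-null mean below 0.5 of wild type, which 1.06% of expressed loci did, and none had a mean above 2 times wild type, which 6.38% did. In experiment 2 there were 2 below 0.5 (0.757% of expressed loci), KukriC15278_2 and Traes_1AL_A27146E34, both on 1A, and 1 above 2 (2.30%), Traes_7AS_9CFED2464. The members' median ratio was 0.799 in experiment 1 and 0.892 in experiment 2, against 1.23 and 1.05 over all expressed loci. All 4 wild-type libraries lay above all 4 *phyC*-null libraries at 18 members in experiment 1 (2.77% of expressed loci) and at 7 in experiment 2 (3.85%), and the reverse held at 1 (27.8%) and 3 (5.7%). edgeR called 10 members lower (0.923% of loci tested) and 0 higher (0.722%) in *phyC*-null of experiment 1. In experiment 2 it called 3 lower (0.474%), the boron transporters Traes_3AS_48FDCD285 and Traes_3AS_F41DD5A61 and the glycosyltransferase Traes_2BS_9B6AAE1A9, and 1 higher (0.566%), Traes_7AS_4007DA67C. With each library left out in turn, 3 to 13 members were called in experiment 1 and 0 to 4 in experiment 2, where none was called without wild-type library 1 or 2 or without *phyC*-null library 1, 2 or 4, and 1 was called with the replicate number as a block. Since the rule used the mean PHYC ratio, these counts are descriptions.

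**Figure D3:**
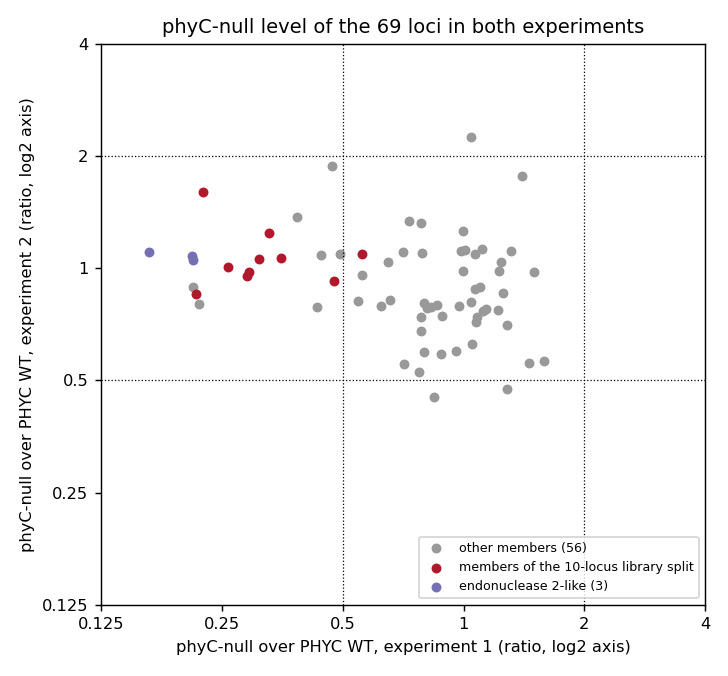
Ratio of *phyC*-null to *PHYC* wild type for each of the 69 loci in PHYC experiment 1 (horizontal axis) and experiment 2 (vertical axis), on log2 axes, with dotted lines at 0.5 and 2. The 3 endonuclease 2-like loci and 9 of the 10 loci with a split between libraries lie left of 0.5 in experiment 1 and between 0.851 and 1.60 in experiment 2.

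The 4 *phyC*-null libraries of PHYC experiment 1 were not alike. At 10 members, *phyC*-null libraries 1 and 4 of experiment 1 each lay at least 3-fold below libraries 2 and 3. Only 19 of the 37399 expressed loci (0.0508%) showed this split, and 12 of the 19 were at least 6-fold lower in *phyB*-null in both experiments. The opposite split, with libraries 2 and 3 low, was found at 0.0374% of expressed loci and at no member. Of the 19 members below 0.5 in *phyC*-null of experiment 1, 9 had the split. Of the 10 members 8 lay on 7B or its scaffolds, as did 11 of the 19 loci. The other 2 members were KukriC589_8, on 3B, and td-k51_contig_69904, on 4B.

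KukriC589_8 and contig42184 were both described as ABC transporters of subfamily C member 14, from a family of pumps that move conjugated compounds into the vacuole. KukriC589_8 (3B, 173498133 to 173501195) held 0.0737, 16, 14.6 and 0.0779 CPM in the 4 *phyC*-null libraries of experiment 1 and 37.4, 16.9, 27.1 and 24.9 CPM in their wild type. In experiment 2 the *phyC*-null libraries held 45.7, 45.99, 38.1 and 44.9 CPM. In the PHYB lines it held 29.6, 23.2, 22.8 and 30.8 CPM in wild type and 0.0394, 0.0722, 0.0629 and 0.0718 CPM in *phyB*-null of experiment 1. So *phyC*-null libraries 1 and 4 lay within the range of the 8 *phyB*-null libraries, 0.0394 to 0.284 CPM, and libraries 2 and 3 just below the lowest of their wild type.

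The locus contig42184 (7B, 50109994 to 50112392), had no read in any *phyB*-null library of experiment 1 and 1 read in experiment 2, against 687 and 1712 reads in the wild-type libraries. Its ratio in experiment 1 was 299-fold with 3 reads over the group taken as the floor. The lower limit of its 95% counting interval there was 243-fold. In experiment 2 the ratio was 1598-fold, with a 95% interval from counting error alone of 287 to 63171. These were ratios of summed reads scaled by library totals, without the 0.05 CPM added elsewhere, with which they were 142 and 228. In *phyC*-null of experiment 1 it held 0, 5.16, 4.37 and 0.039 CPM, and in *PHYC* wild type 8.45, 5.99, 6.12 and 7.1 CPM. Again libraries 1 and 4 were near 0 and libraries 2 and 3 were not.

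Traes_7BL_D5E233F60 (scaffold 6685401 of 7B, 298 to 3798) was described as a cytosolic glyceraldehyde-3-phosphate dehydrogenase, an enzyme of glycolysis. It held 206, 212, 243 and 196 CPM in wild type and 33.2, 31.5, 29.9 and 27.4 CPM in *phyB*-null of PHYB experiment 1. In PHYC experiment 1 it held 674, 694, 475 and 366 CPM in wild type and 50.3, 197, 179 and 49.5 CPM in *phyC*-null. At this locus libraries 2 and 3 of *phyC*-null lay below all 4 wild-type libraries as well, and libraries 1 and 4 lower still.

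Traes_7BL_8BCDD43E2 (7B, 120031139 to 120036540), a plant protein without a named function, held 0.406, 22.4, 20.7 and 0.351 CPM in *phyC*-null of experiment 1 and 48.4, 42.7, 38.3 and 41 CPM in its wild type. Its ratios of wild type to *phyB*-null were 59.7 and 120.1. The locus td-k21_contig_66648 (7B, 186570963 to 186573806) held 0, 1.83, 1.6 and 0 CPM in *phyC*-null of experiment 1. In *phyB*-null of PHYB experiment 1 it had 2 reads against 200 in wild type, a ratio of 130.8 with a 95% counting interval of 35.7 to 1087. The locus td-k31_contig_76183 (7B, 97622676 to 97623713) had 0 reads in *phyB*-null of experiment 1 against 111 in wild type. That was 48.4-fold with the floor of 3 reads, and the lower limit of the counting interval was 38.7-fold. In experiment 2 it had 1 read against 150, a ratio of 140 with an interval of 24.8 to 5568. With 0.05 CPM added, the ratios in experiments 1 and 2 were 32.3 and 48.03 for td-k21_contig_66648 and 23.4 and 20.6 for td-k31_contig_76183. These loci had no protein hit. With contig42184 they were the 3 members below 0.05 CPM in *phyB*-null of both experiments. The others with the split were td-k31_contig_76379, contig13236 and td-k63_contig_80633 on 7B, the last described as an ankyrin repeat protein, and td-k51_contig_69904 on 4B.

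Relative to the mean of *PHYC* wild type in experiment 2, the median of the 10 loci was 0.00875, 0.461, 0.420 and 0.0198 in *phyC*-null libraries 1 to 4 of experiment 1. In the 4 *PHYC* wild-type libraries of that experiment it was between 0.747 and 0.896, and in the *phyC*-null libraries of experiment 2 between 0.970 and 1.12. None of the 8 *phyB*-null libraries had a median above 0.0280. One of the loci, td-k31_contig_76379, was also low in library 4 of *PHYB* wild type in experiment 1, at 0.0799 CPM, where the other 3 libraries held at least 1.48 CPM. Library totals of the *phyC*-null group in experiment 1 ranged only from 25666957 to 27926101. What the split goes with was not tested. Without libraries 1 and 4, 12 members instead of 19 were below 0.5 of wild type in experiment 1, where the share of expressed loci went from 1.06% to 1.36%. edgeR called 3 members lower instead of 10, and its lower calls over all loci tested fell as well, from 0.923% to 0.0998%.

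**Figure D4:**
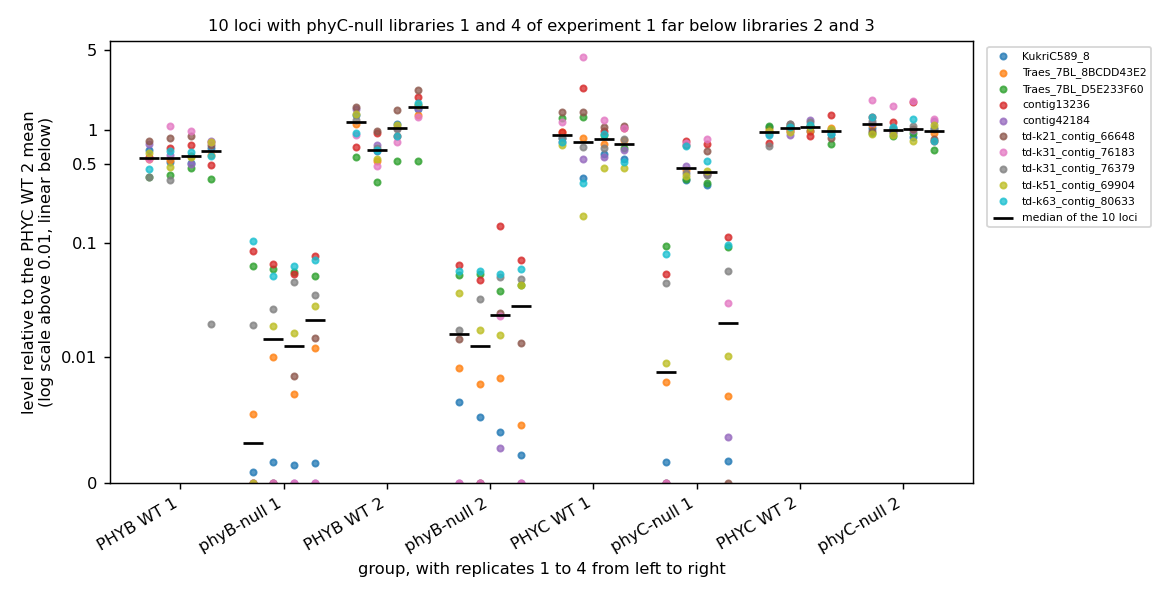
Level of 10 loci in each of the 32 libraries, relative to the mean of *PHYC* wild type in experiment 2 (symmetric log axis, linear below 0.01), with libraries 1 to 4 of each group from left to right and black bars for the median of the 10 loci. In *phyC*-null of experiment 1 libraries 1 and 4 lie with the *phyB*-null libraries, while libraries 2 and 3 have medians of 0.461 and 0.420.

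The other 10 of the 19 did not show the split, and the following were low in all 4 libraries. Traes_7AL_3ACEF0277 (7A, 176398734 to 176402054), without a description, held 141, 40.3, 72.8 and 46.3 CPM in *PHYC* wild type and 28.1, 12.9, 9.62 and 15.1 CPM in *phyC*-null of experiment 1. In experiment 2 it held 147, 137, 235 and 169.5 CPM and 104, 219.8, 77 and 151 CPM, and the groups overlapped. Its ratios of wild type to *phyB*-null were 8.02 and 17. The locus td-k41_contig_7261 (3B, 26159323 to 26163362) had the same pattern, with *phyC*-null ratios of 0.384 and 1.38, and so did Traes_6AS_E89EE5F07 (scaffold 4405735 of 6A, 3770 to 8996), with 0.211 and 0.891. Taking only libraries 2 and 3 of *phyC*-null, 11 of the 19 remained below 0.5.

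Lysine synthesis was represented by 2 loci on 4B, both described as dihydrodipicolinate reductase 2, the enzyme for the second step of the diaminopimelate branch. Traes_4BL_33B99AAA6 (scaffold 6872198 of 4B, 42 to 2858) held 19.6, 23.6, 23.1 and 27.8 CPM in wild type and 2.01, 2.31, 2.31 and 2.01 CPM in *phyB*-null of experiment 1, and Traes_4BL_9373B8CC8 (4B, 250324446 to 250325554) had ratios of 14.8 and 8.7. In the PHYC lines the sums of both were 37.1 ± 8.67 and 34.1 ± 5.26 CPM in wild type and *phyC*-null of experiment 1 and 37.5 ± 3.62 and 41.7 ± 2.55 CPM in experiment 2 (SD, n = 4), with overlap in both. The remaining locus of this list, Traes_4BL_4147F47BA, described as a putative dihydrodipicolinate reductase 3, had ratios of 2.58 and 1.15 in the PHYB lines.

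Cuticular wax genes were members in 2 of 9 cases, both like *ECERIFERUM 3*, which takes part in making the alkanes of the leaf surface in Arabidopsis. Traes_6BS_5750B6593 (6B, 40445712 to 40447451) held 5.28, 6.28, 7.18 and 3.79 CPM in wild type and 0.551, 0.289, 0.566 and 0.466 CPM in *phyB*-null of experiment 1, with ratios of 10.97 and 10.5. Traes_6AS_D3F184617 (scaffold 4404519 of 6A, 2 to 477), with ratios of 6.22 and 7.42, was near the limit of 1 CPM in wild type. A further *ECERIFERUM 3*-like locus on 6B, td-k63_contig_81648, was 10.8 and 8.81-fold lower in *phyB*-null and had a *phyC*-null ratio of 0.489, just outside the band. One more on 6A, Traes_6AS_A40580BCA, had ratios of 6.04 and 4.90. Over the whole list 6 loci were lower and 3 higher in *phyB*-null in both experiments.

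Transcription factors were members in 3 of 51 cases. TRAES3BF035300010CFD (3B, 888654 to 890688), described as bHLH36, held 10.6, 14.1, 13 and 6.95 CPM in wild type and 0.0394, 0.0722, 0.0839 and 0.179 CPM in *phyB*-null of experiment 1, with ratios of 78.2 and 44.7. In the PHYC lines its ratios of *phyC*-null to wild type were 0.997 and 0.981, and the level was within 6.27 to 15.2 CPM in all 16 libraries. Traes_1BL_756A7C42B (scaffold 3876205 of 1B, 2 to 240), described both as MYB-related and as a DnaJ homolog, had ratios of 6.68 and 12.4. Over the list 20 loci were lower and 31 higher in *phyB*-null in both experiments.

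Traes_4BL_BEF6AF501 (4B, 313071551 to 313074481), also described as bHLH36, went with a locus described as a copia-like retrotransposon, td-k31_contig_30683 (4B, 314536562 to 314539276). Both had the same hypothetical protein as a hit. In *PHYB* wild type of experiment 2 Traes_4BL_BEF6AF501 held 96.1, 170.4, 26.3 and 189.7 CPM and td-k31_contig_30683 held 50.4, 83.9, 15.1 and 96.7 CPM. Library 3 was low and the others were high at both loci, and library 3 of Traes_4BL_BEF6AF501 lay below the highest *phyB*-null library of experiment 1, at 28.7 CPM. The values of both loci therefore cannot be taken as separate, and the ratios were 10.2 and 7.91 and 9.9 and 7.36. The other repeat among the members, td-k35_contig_60500 (4B, 224523262 to 224526205), described as a gypsy retrotransposon, had ratios of 12.1 and 11.6. Of the 20 repeats of the list, 8 were lower and 10 higher in *phyB*-null in both experiments.

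Receptor kinases and disease resistance proteins made up 2 members. Of the list they belong to, 22 loci were lower and 132 higher in *phyB*-null in both experiments. The members were KukriC15594_4 (scaffold 2804487 of 5A, 3700 to 5494), described as a cysteine-rich receptor-like kinase, with ratios of 6.38 and 7.78, and Traes_3AL_F1C60A206 (3A, 178844387 to 178847386), a lectin receptor-like kinase, with 6.95 and 17.7. The purple acid phosphatase 20 locus Traes_5BL_8BEF09C2C (5B, 147870826 to 147878839), of an enzyme family that releases phosphate, was the 1 member of 12 phosphate loci. It held 3.25, 3.37, 2.68 and 3.35 CPM in wild type and 0.118, 0.108, 0.21 and 0.251 CPM in *phyB*-null of experiment 1, with ratios of 14.5 and 14.2. The glycosyltransferase Traes_2BS_9B6AAE1A9 (scaffold 5172024 of 2B, 7209 to 8182), described as UGT85A2, an enzyme type that attaches sugar to small molecules, was the 1 member of 29 and had ratios of 8.13 and 15.3. No member came from the lists of 5 sugar transporters, 26 loci whose description named a cytochrome P450 or 14 cell wall loci. All 5 sugar transporters were nevertheless lower in *phyB*-null in both experiments. Of the cytochrome P450 loci 9 were lower and 17 higher in both, and of the cell wall loci 8 were lower and 6 higher. The premnaspirodiene oxygenase Traes_6AS_F061F607E belongs by its name to the cytochrome P450 enzymes, and it was counted in the terpene list.

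Traes_7AS_4007DA67C (7A, 13691305 to 13696331), described as a trimethylguanosine synthase, which modifies the cap of small nuclear RNAs, held 13.9, 12.6, 15.4 and 16.2 CPM in wild type and 0.236, 0.541, 0.398 and 0.251 CPM in *phyB*-null of experiment 1. In experiment 2 the values were 14.8, 15.3, 10.9 and 15.2 CPM and 0.426, 0.365, 0.18 and 0.429 CPM. The ratios were 35.9 and 35.2, and in *phyC*-null the level was 1.39 and 1.77 times wild type. The 4 *phyC*-null libraries of experiment 2 lay above all 4 of their wild type. Traes_2AL_4978159B3 (2A, 203360326 to 203362660), without a description, had ratios of 23.8 and 27.7 but a wider spread, with 23, 3.79, 1.42 and 5.59 CPM in wild type of experiment 1.

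Among members with high CPM, a value not corrected for length, Traes_1AL_B77FFBAFC (1A, 238684148 to 238685629) had no description. It held 109, 84, 128 and 258 CPM in wild type and 12.2, 42.2, 21.9 and 12 CPM in *phyB*-null of experiment 1. The values of experiment 2 were 386, 142, 468 and 130.3 CPM and 41.9, 24.9, 28.2 and 26.5 CPM. Wild-type libraries differed widely at this locus, and in both experiments the lowest still lay above the highest of *phyB*-null.

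The rule used the means of both wild types, each against its own mutant, but set no limit on the ratio of one wild type to the other. It did ask for a floor and a 6-fold ratio in the *PHYB* wild type and for no floor in the PHYC lines. Selection could therefore favour loci higher in the *PHYB* wild type, and the counts of members that follow are descriptions. The *PHYC* wild-type mean was within 0.5 to 2 times the *PHYB* wild-type mean at 52 of 69 members, against 94.2% of expressed loci. It was below 0.5 at 13 (4.63% of expressed loci) and above 2 at 4 (1.22%). The median of this ratio was 0.886 over the members and 0.856 over all expressed loci. The lines were grown separately, so the line and the growth run cannot be told apart.

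At 4 members all 16 libraries of the PHYC lines lay below all 8 *PHYB* wild-type libraries, which 1.64% of expressed loci showed. Traes_6AL_3D0205BDD (6A, 38783698 to 38788859), described as a mitochondrial chaperonin CPN60-like protein, held 17.1, 16.2, 16.9 and 19.4 CPM in *PHYB* wild type and 0.394, 0.794, 0.545 and 0.466 CPM in *phyB*-null of experiment 1. Its lowest, median and highest values were 0.0806, 0.394 and 0.832 CPM over the 8 *PHYC* wild-type libraries and 0.19, 0.265 and 0.394 CPM over the 8 *phyC*-null libraries. This locus was thus low in all lines but the *PHYB* wild type, at 0.0245 of it in *PHYC* wild type. The others were td-k63_contig_81468 (7B, 235625913 to 235634954), described as a histone-lysine methyltransferase, with 0.167 of the *PHYB* wild type, contig17558 (7B, 237683298 to 237683766), with 0.198, and contig05464 (7B, 237684191 to 237684931), with 0.169. The latter 3 are on 7B, where contig17558 and contig05464 are 425 bp apart, so this pair may not be separate transcripts.

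Between the growth runs of the wild types, some members other than the boron transporters also passed the test. The rule used wild-type means, so the counts of members called are descriptions. In the PHYB wild type, edgeR's quasi-likelihood test called 2 members higher in experiment 2, among 1.1% of loci tested. Traes_5BL_9C48DD2AC, without a description, held 4.51, 2.45, 1.96 and 7.63 CPM in experiment 1 and 22.3, 14.9, 27.3 and 21.3 CPM in experiment 2, a log2 difference of 2.32 ± 0.41 (SE) with an adjusted P of 0.00232. The libraries did not overlap. The receptor-like kinase Traes_3AL_F1C60A206 held 2.66, 3.28, 1.56 and 2.75 CPM and 5.78, 6.89, 6.04 and 9.77 CPM, with a log2 difference of 1.43 ± 0.24 and an adjusted P of 0.00158 in edgeR. Both calls were lost without replicate 1 or replicate 3, with adjusted P values of 0.0337 and 0.0438 for the former and 0.0133 and 0.0275 for the latter.

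In the PHYC wild type 3 members were called higher in experiment 2 (0.785% of loci tested) and 1 lower (1.25%). Traes_1AS_143816DF1 held 2.58, 3.01, 2.27 and 1.41 CPM in experiment 1 and 6.86, 9, 7.46 and 5.45 CPM in experiment 2, with a log2 difference of 1.52 ± 0.23 and an adjusted P of 0.0012 in edgeR. Traes_7AS_9CFED2464 differed by 1.56 ± 0.23 (adjusted P 0.0012) and the gypsy-like locus td-k35_contig_60500 by 1.93 ± 0.34 (0.00323). Of 9 alternative fits, Traes_1AS_143816DF1 passed 0.01 in 8, with an adjusted P in edgeR of up to 0.0162, Traes_7AS_9CFED2464 in 7 (up to 0.0184) and td-k35_contig_60500 in 6 (up to 0.0557). Traes_2BS_1CDFC2FF61 was lower by a log2 difference of -1.55 ± 0.33 (0.00871), and passed 0.01 in 3 of 9 alternative fits. Over all 69 members the median log2 difference was -0.06 in the PHYB wild type, where all loci tested had 0.01, and 0.35 in the PHYC wild type, where all loci had -0.01. None of the 4 loci called in the PHYC wild type was called in the PHYB wild type.

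At 7 of the 69 members wild-type and *phyB*-null libraries overlapped, and at 2 of these the wild type fell into very different levels. Traes_1AL_A4F0E895F (1A, 60251070 to 60256419) held 1.13, 18.8, 40.5 and 0.759 CPM in wild type of PHYB experiment 1 and 36.7, 18.9, 1.15 and 37.1 CPM in that of experiment 2. CL1Contig6366 (3B, 555527571 to 555528144) held 0.18, 3, 5.32 and 0.2 CPM and 5.17, 3.01, 0 and 7.28 CPM. At both loci libraries 1 and 4 of experiment 1 and library 3 of experiment 2 were low, each below 0.1 of the median of the other 5, which 0.0214% of expressed loci showed. In the 16 libraries of the PHYC lines Traes_1AL_A4F0E895F stayed within 13.9 to 32.3 CPM. Without the 3 libraries the rule gave 72 loci, of which 58 were among the 69.

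The remaining overlaps were at KukriC15278_2 (1A, 245110643 to 245111086), Traes_1AL_A27146E34 (1A, 245544712 to 245545241), td-k31_contig_76379, td-k31_contig_30683 and Traes_4BL_BEF6AF501. KukriC15278_2 held 0.631, 4.76, 0.508 and 0.679 CPM in wild type of experiment 1 and 0.224, 1.02, 0.0911 and 3.67 CPM in that of experiment 2, so that library 2 of experiment 1 and library 4 of experiment 2 made most of the mean. Traes_1AL_A27146E34 had 7.26, 16.6, 3.73 and 4.43 CPM and 1.63, 6.95, 1.64 and 19.4 CPM, and the same libraries were the highest.

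The members not yet named include contig55055 (5A, 32899747 to 32905453), described as ankyrin-like, which held 6.42, 10.3 and 16.5 CPM (lowest, median and highest of 8 libraries) in wild type and 0.614, 0.816 and 1.65 CPM in *phyB*-null. For td-k25_contig_69354 (2A, 109539658 to 109540160), described as an E3 ubiquitin-protein ligase, a class of enzymes that marks proteins for degradation, these values were 1.15, 1.53 and 2.43 CPM and 0.033, 0.144 and 0.265 CPM. For Traes_4AS_C59905097 (scaffold 5953624 of 4A, 6432 to 8472), the only member on 4A, they were 4.91, 8.27 and 9.29 CPM and 0.852, 0.994 and 1.51 CPM. Wild type and *phyB*-null did not overlap at any of these 3 loci. The hypothetical protein locus td-k41_contig_81464 had ratios of 9.56 and 11.1. Among the loci outside the shown annotation, Traes_1AL_BB4298457, Traes_2BL_A0786494A, Traes_3AL_21871C22D, Traes_3AL_FFE4C92D8, Traes_7AL_1BC53C605 and td-k31_contig_75774 had ratios of 6.45 to 18.96 over both experiments.

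The members were spread over all 14 chromosomes, 33 on the A genome and 36 on the B genome, while 49.7% of expressed loci lay on the A genome. Chromosome 7B held 11 members, or 4.4 per 1000 expressed loci, followed by 1A with 8 (3.28) and 3A with 9 (3.18). The 11 were 15.9% of the members, and 6.68% of expressed loci lay on 7B. Of the 11, 8 showed the split between *phyC*-null libraries of experiment 1. The others were td-k63_contig_81468, contig17558 and contig05464, where all 16 libraries of the PHYC lines lay below all 8 *PHYB* wild-type libraries. The fewest were on 4A and 6B, with 1 member each (0.390 and 0.427 per 1000). Of 41 members with an expressed neighbour within 200 kb, 2 had one that was also at least 6-fold lower in *phyB*-null in both experiments, 4.88% against 0.525% of expressed loci. These 2 were contig17558 and contig05464, each the neighbour of the other. They are 425 bp apart and may not be separate transcripts. The rule used this same contrast to choose the members, so nothing is read from the share. A partner on the other genome was counted only where a locus there carried the same transcript name. By this definition 2 members had one, the partner of td-k35_contig_60500 being at 0 in the PHYB lines and that of contig55055 below 1 CPM. Homoeologues with names of their own were not found in this way, so how many members have a lowered homoeologue was not tested. Member loci were 239 to 9042 bases long, with a median of 2102, against 3201 over all expressed loci.

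**Figure D5:**
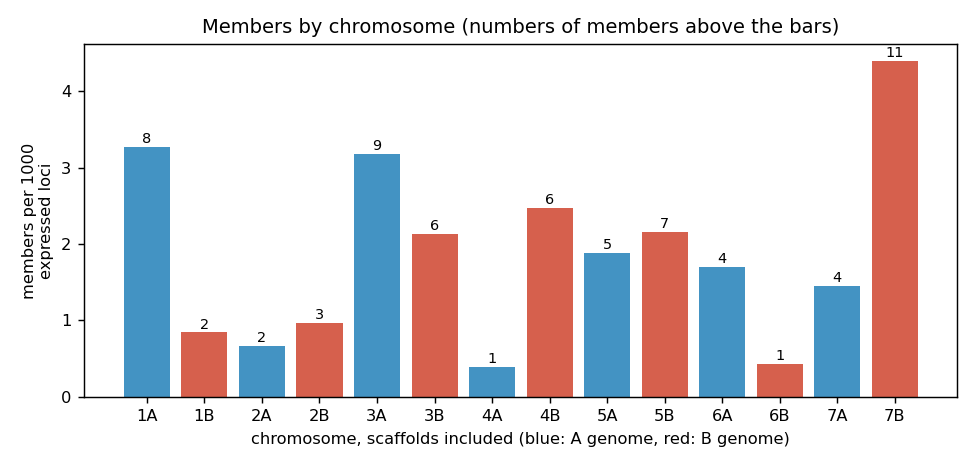
Members per 1000 expressed loci on each of the 14 chromosomes, scaffolds counted with the chromosome they were assigned to, with the number of members above each bar. Chromosome 7B has the tallest bar, 11 members or 4.4 per 1000, and 4A and 6B have 1 member each. Of the 7B members 8 showed the split between *phyC*-null libraries of experiment 1.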

How the data were processed

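RNA-seq (single-end reads, TruSeq kit without strand marking) was made from 32 leaf libraries. The authors trimmed the reads, aligned them with GSNAP to the A and B arms of the IWGSC draft assembly v2.2 of Chinese Spring wheat, kept uniquely mapped reads and counted them per locus with HTSeq. The deposited values are raw counts, without normalization. No per-sample column was left unused.

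Counts were divided by column totals to give CPM, and ratios took a pseudocount of 0.05 CPM. Tests used edgeR 4.0.16 in R 4.3.3 (quasi-likelihood, RLE factors, at least 3 reads in at least 2 libraries, Benjamini-Hochberg 0.01 over all loci tested), on simulated counts first. Alternatives were TMM, DESeq2 1.42.0, other filters and thresholds, a replicate block and libraries left out. The interaction test, and the fits without libraries that stood apart, were added after the data had been seen. P-values set a difference against the spread between libraries within the groups fitted. They do not cover the spread between growth runs, since each experiment was a single run. Counting intervals (95%) cover counting error only. The members and gene lists were chosen with earlier results of these data known. Loci were named if in a list with at least 2 members, among the 10 highest wild-type CPM or the 10 largest ratios, or next to the threshold. Others were named after their values were seen.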

Additional observations from a re-analysis of the deposited data

Results flagged for a closer look

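Single libraries stood apart from the other 3 of their group in 27 of 392 groups of 4 libraries, where chance marks about 1 in 20, or 19.6.

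Most cases were terpene and boron loci. In library 2 of *PHYC* wild type, experiment 2, the 9 terpene loci summed to 2196 CPM (others 1454 to 1578). The same library was highest at Traes_5AS_68BD5FB57 with 583 CPM (377 to 409), Traes_5AS_BC8784C1D with 248 CPM (172 to 180.0) and Traes_5BS_D41C4D394 with 172 CPM (119 to 125.4). In library 3 of *phyC*-null, experiment 1, the 9 loci summed to 1169 CPM (969 to 982). There Traes_5AS_BC8784C1D held 129.9 CPM (110.6 to 111), Traes_5BS_1F3E56595 held 112 CPM (95.3 to 97.9) and contig57240 held 278 CPM (222 to 225). Library 3 of *PHYB* wild type, experiment 2, was low at Traes_5AS_68BD5FB57 with 236 CPM (365 to 389), Traes_5BS_479F212D9 with 51.997 CPM (83.3 to 86.9), Traes_5BS_D41C4D394 with 73.96 CPM (109.9 to 112) and Traes_7AS_4007DA67C with 10.9 CPM (14.8 to 15.3).

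In library 2 of *PHYC* wild type, experiment 1, the 5 boron loci summed to 218 CPM (139 to 146). That library was also highest at Traes_3AS_48FDCD285 with 129 CPM (48.7 to 59.9), Traes_4BL_9373B8CC8 with 35.3 CPM (15.7 to 18.9) and td-k31_contig_76183 with 5.75 CPM (1.37 to 1.61). Traes_3AS_6FF8FC0C5 held 10.99 CPM in library 2 of *phyC*-null, experiment 1 (6.93 to 7.60), and 4.43 CPM in library 3 of experiment 2 (2.12 to 2.37). Traes_3AS_F41DD5A61 held 11.4 CPM in the latter library (6.33 to 7.01).

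The other cases were single loci. KukriC589_8 was low in library 3 of *phyC*-null, experiment 2, with 38.1 CPM (44.9 to 45.99), and Traes_7BL_D5E233F60 in library 4 of *PHYC* wild type, experiment 2, with 401 CPM (573 to 579). Traes_4BL_33B99AAA6 was high in library 3 of *PHYC* wild type, experiment 1, with 17.8 CPM (13.8 to 14.5), and Traes_2AL_4978159B3 in library 1 of *phyC*-null, experiment 1, with 1.40 CPM (0.322 to 0.351). In *phyB*-null of experiment 1, Traes_1BL_756A7C42B was low in library 1 with 0.197 CPM (0.671 to 0.718) and td-k35_contig_60500 high in library 3 with 0.273 CPM (0.0718 to 0.0788). In *phyB*-null of experiment 2, contig42184 and td-k31_contig_76183 each held 0.0300 CPM in library 3, which is 1 read, and 0 in the others.

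The difference of *phyC*-null from wild type differed between PHYC experiments at Traes_3AS_E61C3A374, by 3.05 on the log2 scale in edgeR's interaction test. The limit on the mean PHYC ratio could favour members with such a difference.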

How the results depend on the processing

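The rule gave 69 loci, and 35 with a pseudocount of 0.5 CPM, 124 with a ratio of 4, 37 with a ratio of 8 and 65 to 73 when each library was left out. With RLE or TMM scaling it gave 80 and 78 loci, 67 of them shared. With the PHYC ratio held within 0.5 to 2 in each PHYC experiment, the rule gave 47 loci, all of them among the 69. The other alternatives for the number of loci stayed within 1.5 times. The 10 members called in *phyC*-null of experiment 1 became 3 without both libraries 1 and 4, and 3 to 13 with each library left out. The 4 called in experiment 2 became 7 at an adjusted P of 0.05, 7 with DESeq2, 8 with no filter beyond 1 read, 1 with the replicate number as a block and 0 to 4 with each library left out. For the PHYB wild types the 6 calls became 12 at 0.05 and 4 to 9 with replicates left out. For the PHYC wild types the 4 calls became 16 at 0.05, 12 with DESeq2 and 0 to 6 with replicates left out. The 1 interaction call became 5 at 0.05, 8 with DESeq2, 2 without both libraries and 0 whenever a replicate number was left out. The 19 members below 0.5 in *phyC*-null of experiment 1 became 12 without both libraries and 16 to 21 with each library left out, and the 2 in experiment 2 became 0 to 5. Where the log2 difference of a single locus was followed over the alternative fits, its sign stayed the same. The balance of higher and lower calls could change. In the PHYB wild type it was 2 higher and 4 lower in experiment 2 at 0.01, and 7 higher and 5 lower at 0.05. Correlations of same-numbered libraries ran from -0.437 to 0.519. Differently numbered libraries were not compared, so whether replicate numbers pair the libraries was not tested. With the replicate block, edgeR called 66, 67 and 65 members lower in *phyB*-null of experiment 1, experiment 2 and both. Members with few reads are limited by depth, since 1 read was worth up to 0.0627 CPM.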
